A study of Mus musculus with 5 samples.

Results

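The cell cycle genes described here were 37 named genes of DNA replication and mitosis, chosen by name from the platform annotation of the array and split into 16 S-phase members and 21 mitotic members. These members, and the other gene lists below, were chosen with earlier results of these data known. Shares of members set beside shares of all genes are therefore descriptions only. Of the 37 members, 34 had at least 1 probe set that carried their symbol alone, in a table of 8251 genes. The values came from 5 mouse co-cultures with 1 one-colour array each, and every dish was kept for 6 days with ST2-T stromal cells, dexamethasone and 1,25-dihydroxyvitaminD3, which together favour osteoclasts, the bone-resorbing cells that form by fusion of myeloid precursors. The groups were Fos+/+ splenocytes, Fos-/- splenocytes, Fos+/+ bone-marrow cells, Fos-/- splenocytes infected with a deltaNFAT-virus, and Fos-/- splenocytes infected with a GFP-virus (green fluorescent protein). Fos is one of the AP-1 transcription factor proteins, and NFAT proteins are transcription factors too. What the deltaNFAT construct holds, which promoter and dose the viruses had, which Fos alleles the stromal cells carry, and how old and how many the animals were is not stated in the labels. The dishes were harvested whole, so each array holds RNA of the haematopoietic cells and of the stromal cells, and in such bulk RNA a smaller number of dividing cells and less cell cycle RNA per cell cannot be told apart. With 1 array per group there is no replicate error for any value below, and no test was possible.

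Cells copy their DNA in S phase and separate the copies in mitosis. Genes needed for copying are largely switched on late in G1 by E2F transcription factors, and genes needed for division are switched on later, in G2, mainly through CHR elements and the CCAAT boxes bound by NF-Y. The RNAs of both sets are low in resting cells, so they are widely read as a measure of how much of a culture is dividing. Osteoclast precursors divide under M-CSF before they fuse, and a mature osteoclast no longer does.

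Intensities are on the linear scale of the deposited table. A value at or under 19.8, the 40th percentile of all values, was treated as unmeasured and set to that floor before ratios were taken. A call of higher or lower meant a ratio of 2-fold or more where the brighter array read 39.6 or more. Above the floor in at least 1 array were 32 of the 34 members, 14 S-phase and 18 mitotic, and 27 reached 39.6 in at least 1 array. The helicase subunit Mcm6 and the spindle protein Tacc3 were under the floor in every array. The kinetochore kinase Bub1, the spindle motor Kif11, the primase subunit Prim1, the ribonucleotide reductase subunit Rrm1 and the topoisomerase Top2a were above the floor in some array but gave no reading above 34.0, and could not be counted either way. The cyclin Ccnb1 and the checkpoint kinase Bub1b have no probe set of their own among those analysed here, and thymidylate synthase, Tyms, shares its 2 probe sets with a pseudogene.

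The 5 arrays were alike in scale, with 58.3 to 62.3% of 12488 probe sets above the floor and Actb control probe sets whose 3-prime reading was 1.02 to 1.31 times the 5-prime one. The deleted gene does not check the labels: the brighter Fos probe set read 848.5 and 614 in the Fos+/+ spleen and bone marrow arrays, 426 in Fos-/- spleen, 581 for deltaNFAT and 607 for GFP, and stromal RNA is in every dish. Groups are therefore named as labelled. The arrays did not divide by genotype alone. Of 5567 genes that reached 39.6 in some array, 225 (4.04%) were at least 2-fold higher in the bone marrow and both virus arrays than in both uninfected spleen arrays, against 26 (0.467%) the other way. Of the 27 members, 0 were so placed in the higher direction and 1, the thymidine kinase Tk1, in the lower. The comparison of the uninfected spleen arrays and that of the virus arrays with each other or with bone marrow each stay on one side of this division.

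Cell cycle genes were higher in the Fos+/+ than in the Fos-/- spleen co-culture, among them cyclins and kinases of mitosis, the motor Kif22 and a few genes of DNA replication. Of the 27 members bright enough, 15 were at least 2-fold higher and 0 lower, where 6.48% of 4997 genes bright enough were higher and 6.42% lower. By group these were 11 of 15 mitotic and 4 of 12 S-phase members. The S-phase count used the brightest probe set per gene, and dimmer probe sets of Mcm3 and Mcm5 also passed 2-fold. The median log2 ratio was 1.32 over the 18 mitotic members above the floor and 0.59 over the 14 S-phase members, a difference of -0.73 for S-phase minus mitotic that no replicate tests, and 0.00 over all 6409 genes above the floor. A dim gene can only be counted when it is bright on the other side, so the count was repeated over genes that read 39.6 or more in the Fos-/- spleen array. There 6 of 7 mitotic and 1 of 9 S-phase members were 2-fold higher, where 3% of 4701 genes were. These counts depend on the floor: with a floor of 65.1, 6 of 10 members passed, and with one of 98.8, chosen after the data were seen, 4 of 8.

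The cyclins and their kinase showed the pattern over a range of brightness. Ccnb2, a B-type cyclin that carries cells into mitosis, read 359 in Fos+/+ spleen, 326 in bone marrow, 148 in Fos-/- spleen, 156 for deltaNFAT and 115 for GFP. Both Fos+/+ arrays lay above the 3 Fos-/- arrays with no overlap, and Fos+/+ spleen was 2.44-fold over Fos-/- spleen. Cdk1, the kinase that pairs with the mitotic cyclins, read 128 in Fos+/+ spleen, 108 in bone marrow, 52.8 in Fos-/- spleen, 51.4 for deltaNFAT and 35.8 for GFP, a ratio of 2.41-fold between the spleen arrays. Ccna2, the cyclin of S phase and G2, read 155 in Fos+/+ spleen, 66.4 in bone marrow, 53.0 in Fos-/- spleen, 20.7 for deltaNFAT and under the floor for GFP. It was 2.92-fold higher in Fos+/+ spleen relative to Fos-/-, and unlike the other 2 genes it also passed between the Fos+/+ arrays, 2.33-fold lower in bone marrow.

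Regulators of spindle and chromosome behaviour were ordered in the same way. Aurka, the kinase of the centrosomes, read 84.6 in Fos+/+ spleen, 53.7 in bone marrow and 23.0 with deltaNFAT, and was under the floor in Fos-/- spleen and with GFP, so that the spleen ratio was at least 4.27-fold. Birc5, survivin, which guides the chromosomal passenger complex to centromeres, read 158 in Fos+/+ spleen, 118 in bone marrow, 46.7 in Fos-/- spleen, 39.0 for deltaNFAT and 42.6 for GFP, or 3.38-fold between the spleen arrays. Its 3 Fos-/- values lay close together, all below either Fos+/+ value. Cdca8, borealin, a partner of survivin in that complex, read 104 in Fos+/+ spleen, 91.3 in bone marrow, 32.9 in Fos-/- spleen, 70.6 for deltaNFAT and under the floor for GFP. Here deltaNFAT stood nearer to the Fos+/+ arrays than to the other Fos-/- arrays, while Fos+/+ spleen was 3.18-fold over Fos-/- spleen.

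Plk1, the polo-like kinase of mitotic entry and exit, read 71.9 in Fos+/+ spleen, 77.8 in bone marrow, 28.2 in Fos-/- spleen, 22.6 for deltaNFAT and under the floor for GFP, a spleen ratio of 2.55-fold. A second Plk1 probe set, above the floor only in the Fos+/+ arrays, gave a log2 ratio of 2.16, and the third 1.13 on a reading of 43.3 in Fos+/+ spleen alone. The probe sets thus shared a direction between the spleen arrays. Each of the 3 names carries a letter suffix, here f or g, which marks probes that may read related transcripts. Kif22, a motor that moves chromosomes, read 216 in Fos+/+ spleen, 192 in bone marrow, 37.8 in Fos-/- spleen, 61.0 for deltaNFAT and 31.2 for GFP. The ratio of 5.71-fold between the spleen arrays came from a probe set with a different suffix, r. Stmn1, stathmin, which takes microtubules apart until it is phosphorylated in mitosis, read 281 in Fos+/+ spleen, 219 in bone marrow, 79.7 in Fos-/- spleen, 107 for deltaNFAT and 65.3 for GFP, or 3.52-fold.

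Both proteins that regulate the anaphase-promoting complex passed as well. Cdc20, its activator, read 212 in Fos+/+ spleen, 158 in bone marrow, 71.3 in Fos-/- spleen, 87.8 for deltaNFAT and 55.6 for GFP, a spleen ratio of 2.98-fold. Mad2l1, the spindle checkpoint protein that holds Cdc20 back, read 71.0 in Fos+/+ spleen, 87.2 in bone marrow, 27.7 in Fos-/- spleen, 46.3 for deltaNFAT and 38.8 for GFP, or 2.56-fold. In both genes the Fos-/- arrays were the 3 lowest, and for Mad2l1 the lowest of all was Fos-/- spleen without virus.

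The other 4 mitotic members bright enough stayed under 2-fold between the spleen arrays. Ube2c, the ubiquitin-conjugating enzyme that works with the anaphase-promoting complex, read 46.3 and 37.8 in Fos+/+ and Fos-/- spleen, and the microtubule depolymerase Kif2c read 62.4 and 38.4. The centromeric histone Cenpa read 123 in Fos+/+ spleen, 154 in bone marrow, 92.5 in Fos-/- spleen, 123 for deltaNFAT and 37.4 for GFP, a spleen ratio of 1.33-fold. Mki67, the proliferation antigen Ki-67, read 45.3 in Fos+/+ spleen, 107 in bone marrow, 37.0 in Fos-/- spleen, 36.6 for deltaNFAT and 33 for GFP. Bone marrow stood alone for Mki67, and its other probe set read 109 there, 28.0 with deltaNFAT, 24.5 with GFP and under the floor in both uninfected spleen arrays.

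**Figure D1:**
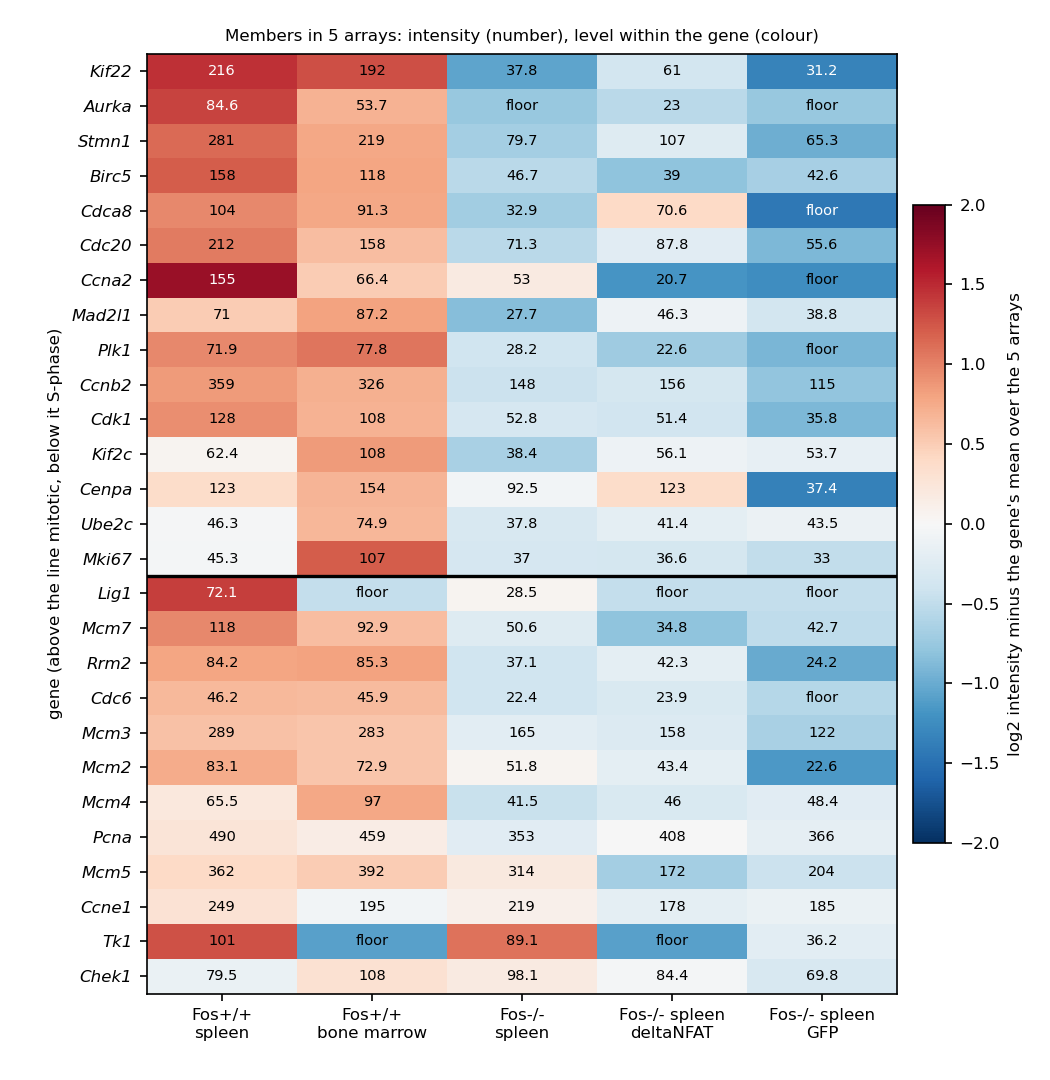
Intensity (number in each cell) of the 27 members that reached 39.6 in at least 1 of the 5 arrays, brightest probe set per gene, with 1 array per column; colour is the log2 intensity minus the gene's mean over the 5 arrays, and "floor" marks 19.8 or less. All 15 mitotic rows, above the line, are higher in both Fos+/+ columns than in any Fos-/- column (Cenpa by 123.0 against 122.9 only), whereas Lig1, Ccne1, Tk1 and Chek1 among the 12 S-phase rows are not.

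Of the 12 S-phase members bright enough, 8 had both Fos+/+ arrays above the 3 Fos-/- arrays: Cdc6, Mcm2, Mcm3, Mcm4, Mcm5, Mcm7, Pcna and Rrm2. Mcm7, a subunit of the MCM helicase that unwinds DNA at the fork, read 118 in Fos+/+ spleen, 92.9 in bone marrow, 50.6 in Fos-/- spleen, 34.8 for deltaNFAT and 42.7 for GFP, or 2.34-fold between the spleen arrays. Mcm3 read 289 in Fos+/+ spleen, 283 in bone marrow, 165 in Fos-/- spleen, 158 for deltaNFAT and 122 for GFP, and Fos+/+ spleen was 1.75-fold over Fos-/- spleen. Its other probe set was lower in brightness but gave 1.10 on the log2 scale against 0.81. Mcm2 read 83.1 and 51.8 in the Fos+/+ and Fos-/- spleen arrays, and Mcm4 65.5 and 41.5. For each of Mcm2, Mcm3, Mcm4, Mcm5 and Mcm7 both Fos+/+ arrays lay above the 3 Fos-/- arrays. By the brightest probe set per gene, Mcm7 alone of these reached 2-fold between the spleen arrays. The dimmer probe sets of Mcm3 and Mcm5 reached it too, with log2 ratios of 1.10 and 3.27.

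Mcm5 was the member whose probe sets differed most. Its brighter one, which is suffixed, read 362 in Fos+/+ spleen, 392 in bone marrow, 314 in Fos-/- spleen, 172 for deltaNFAT and 204 for GFP, a spleen log2 ratio of 0.20. The other, unsuffixed, read 199, 108, 20.6, 71.9 and 51.9 in the same order, a log2 ratio of 3.27. Both placed the Fos+/+ arrays above every Fos-/- array, but they put Fos-/- spleen at opposite ends of the Fos-/- arrays.

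Rrm2, the regulated subunit of ribonucleotide reductase, which makes deoxynucleotides, read 84.2 in Fos+/+ spleen, 85.3 in bone marrow, 37.1 in Fos-/- spleen, 42.3 for deltaNFAT and 24.2 for GFP, or 2.27-fold between the spleen arrays. Cdc6, which loads the helicase onto origins, read 46.2 and 45.9 in the Fos+/+ arrays, 22.4 in Fos-/- spleen, 23.9 for deltaNFAT and under the floor for GFP, or 2.06-fold between the spleen arrays. Both genes had nearly equal values in the Fos+/+ arrays. Pcna, the sliding clamp of the polymerases, read 490 in Fos+/+ spleen, 459 in bone marrow, 353 in Fos-/- spleen, 408 for deltaNFAT and 366 for GFP. Its groups did not overlap, yet the spleen ratio was 1.39-fold.

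The DNA ligase Lig1, the kinase Tk1, the cyclin Ccne1 and the checkpoint kinase Chek1 were not ordered by genotype. Lig1, which seals Okazaki fragments, read 72.1 in Fos+/+ spleen and 28.5 in Fos-/- spleen and was under the floor in the other 3 arrays, and its ratio of 2.53-fold was lost in the mean of its probe sets. Tk1, which salvages thymidine, read 101 in Fos+/+ spleen, 89.1 in Fos-/- spleen and 36.2 with GFP, and was under the floor in bone marrow and with deltaNFAT. Ccne1, the cyclin of the G1 to S transition, read 249 in Fos+/+ spleen, 219 in Fos-/- spleen, 195 in bone marrow, 178 for deltaNFAT and 185 for GFP. These 3 genes were higher in both uninfected spleen arrays than in the other arrays, the division described above, where 19.3% of all 5567 genes were so placed without overlap. Chek1 lay between 69.8 (GFP) and 108 (bone marrow), with 98.1 in Fos-/- spleen above the 79.5 of Fos+/+ spleen.

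The shared probe sets of Tyms and its pseudogene, which enter no count, read 82.2 and 93.1 in Fos+/+ spleen, 85.7 and 69.2 in bone marrow, 46.8 and 70.0 in Fos-/- spleen, 37.5 and 48.9 for deltaNFAT, and 37.5 and 50.9 for GFP. Only the first of them kept the Fos+/+ arrays above all Fos-/- arrays.

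Across all 5 arrays, both Fos+/+ arrays were above all 3 Fos-/- arrays for 23 of the 27 members bright enough, all 15 mitotic (Cenpa only by 123.0 in Fos+/+ spleen against 122.9 for deltaNFAT) and 8 of 12 S-phase ones, where 15.1% of 5567 genes were so ordered, and the reverse order was found for 0 of 27 members against 10%. Over genes that reached 39.6 in at least 1 Fos-/- array the count was 19 of 22 members against 13.7%. The gap itself was 2-fold or more for 7 members, against 0.88% of all genes (over genes that reached 39.6 in a Fos-/- array, 5 of 22 members against 0.533%, without Aurka and Plk1), and the reverse gap was found for 0 members against 0.413%. These were Aurka, Birc5, Ccnb2, Cdk1, Kif22, Plk1 and Stmn1, all mitotic. With the floor at 65.1 the first count was 10 of 11 and the second 3 of 11. With only unsuffixed probe sets they were 19 of 24 and 5 of 24, and with the mean of all probe sets 22 of 26 and 6 of 26. Mki67 enters the first count through its brighter, suffixed probe set. Its other probe set did not keep the order, being under the floor in Fos+/+ spleen and 28.0 for deltaNFAT. The Fos+/+ arrays differ in tissue and the Fos-/- arrays in virus, so these are 5 conditions and not replicates of a genotype.

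Among these 27 members the highest array was Fos+/+ spleen for 17 and bone marrow for 10, and 0 were highest in a Fos-/- array. Over all 5567 genes, Fos+/+ spleen was highest for 24.6% and bone marrow for 25.7%. The GFP array was alone at the bottom for 15 of the 27 members, against 20.6% of all genes, and 10 of these 15 were mitotic. As a share of the Fos+/+ spleen value, the median over the 15 mitotic members was 88.8% in bone marrow, 39.0% in Fos-/- spleen, 41.4% for deltaNFAT and 27.5% for GFP. For the 12 S-phase members the medians were 95.7, 62.8, 52.0 and 42.5% in the same order, and over all genes they lay between 96.4 and 104%.

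**Figure D2:**
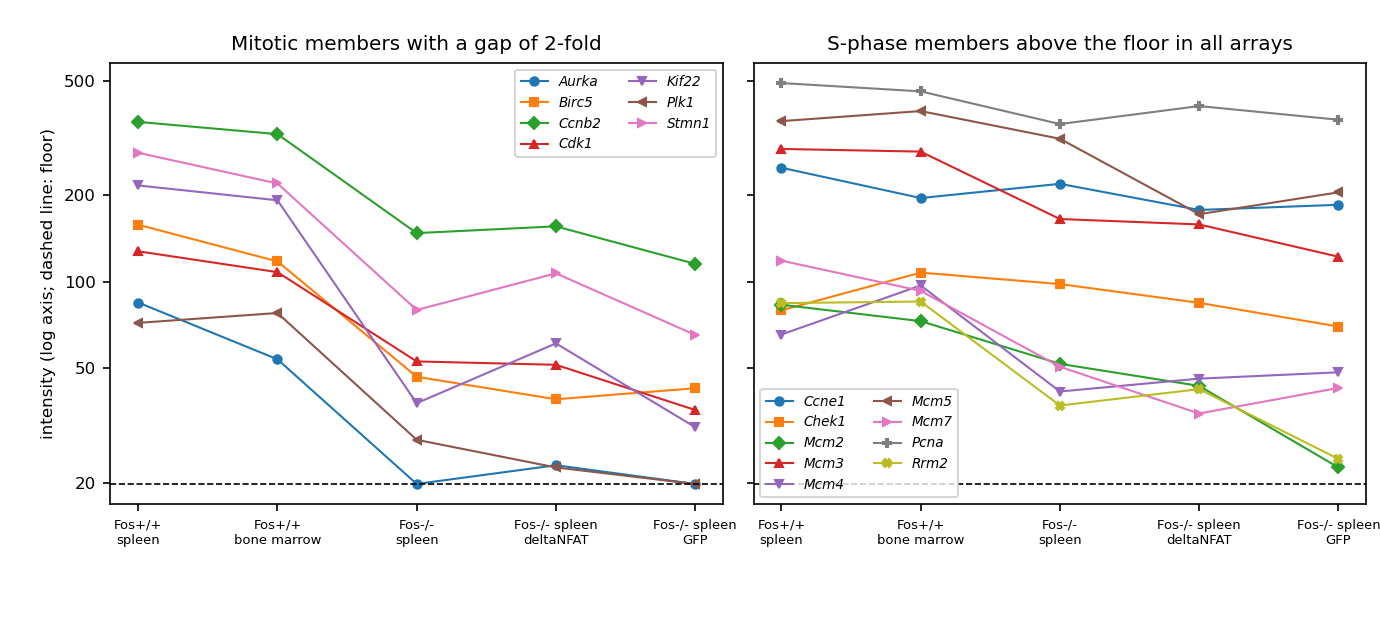
Intensity on a log axis in each of the 5 arrays, 1 array per group, for the 7 mitotic members whose Fos+/+ arrays were 2-fold or more above every Fos-/- array (left) and for the S-phase members above the floor in all arrays (right); values under the floor of 19.8 (dashed) are drawn on it, and lines only join the points of a gene. The mitotic lines drop between bone marrow and Fos-/- spleen, Ccnb2 from 326 to 148, which follows from how these members were picked. On the right Mcm2, Mcm3, Mcm4, Mcm7 and Rrm2 drop there too, Rrm2 from 85.3 to 37.1. The lines of Ccne1, Pcna and Chek1 stay nearly level.

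The promoters of the members were compared in RefSeq sequence (assembly GRCm38.p6), since both gene groups are known for different control elements. A promoter entry was found for 34 of the 37 members, with several start sites for Lig1 and Mcm7. The search covered 250 bases before to 50 after each start site, on both strands, for TTTGAA (a CHR element), for CCAAT (the NF-Y box) and for TTTCCCGC, TTTGGCGC, TTTCGCGC and TTTGCCGC (E2F sites). E2F words on opposite strands overlapped each other in Mcm5 and Mcm6. TTTGAA was found in 14 of 19 mitotic promoters (73.7%), in 1 of 18 S-phase promoters (5.56%) and in 12.8% of 8364 promoters of protein-coding genes on the array. CCAAT was found in 15 of 19 mitotic promoters (78.9%), in 10 of 18 S-phase promoters (55.6%) and in 37.1% of the promoters on the array. It was found at least 2 times in 12 of 19 mitotic promoters (63.2%), in 5 of 18 S-phase promoters (27.8%) and in 13.7% of the promoters on the array. An E2F word was found in 6 of 18 S-phase promoters (33.3%), in 1 of 19 mitotic ones (5.26%) and in 3.53% of the promoters on the array.

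The promoters of Kif22 and Aurka are shown because they led the mitotic members with such words by the spleen ratio, taken at the floor where a value was under it. The one of Mcm7 is shown for the S-phase group, in which Lig1 had a larger ratio but its word lies after the start site, and the one of Cdk1, picked after its matches were seen, is the mitotic promoter that holds all 3 kinds of word. Each runs 5′ to 3′ over the 250 bases before the start site, with the words in capitals on whichever strand they lie (TTCAAA and ATTGG are the reverse strands of TTTGAA and CCAAT, and GCGGGAAA that of TTTCCCGC). They lie on the minus strand at chr7:127042421-127042670 (Kif22), chr2:172370571-172370820 (Aurka), chr5:138171884-138172133 (Mcm7) and chr10:69352913-69353162 (Cdk1).
Kif22: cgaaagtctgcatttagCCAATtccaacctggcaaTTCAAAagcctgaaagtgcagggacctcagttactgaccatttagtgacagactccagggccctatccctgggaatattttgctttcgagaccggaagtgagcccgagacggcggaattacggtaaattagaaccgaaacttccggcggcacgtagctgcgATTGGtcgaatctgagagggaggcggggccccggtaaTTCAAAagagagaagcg
Aurka: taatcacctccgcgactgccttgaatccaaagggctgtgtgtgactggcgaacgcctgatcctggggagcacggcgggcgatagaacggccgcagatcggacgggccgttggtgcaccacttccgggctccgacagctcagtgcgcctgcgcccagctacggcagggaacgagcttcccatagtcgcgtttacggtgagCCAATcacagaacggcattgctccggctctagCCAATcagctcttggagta
Cdk1: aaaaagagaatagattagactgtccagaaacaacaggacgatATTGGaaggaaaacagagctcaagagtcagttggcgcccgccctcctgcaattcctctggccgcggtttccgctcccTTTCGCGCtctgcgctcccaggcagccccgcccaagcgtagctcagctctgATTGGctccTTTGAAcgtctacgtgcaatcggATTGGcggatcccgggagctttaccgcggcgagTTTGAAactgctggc
Mcm7: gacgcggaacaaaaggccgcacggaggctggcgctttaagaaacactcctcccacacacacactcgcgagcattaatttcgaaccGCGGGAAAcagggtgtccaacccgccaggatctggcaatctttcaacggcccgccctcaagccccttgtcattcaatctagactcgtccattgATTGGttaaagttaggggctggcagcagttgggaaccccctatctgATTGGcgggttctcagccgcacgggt
The TTTGAA word of Aurka lies 33 bases after the start site and is not in the stretch shown. In Kif22 and Cdk1 the TTTGAA word nearest to the start lies at base -17 and -15, with a CCAAT box at -54 and -48. A match is a string of letters, and binding was not measured.

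**Figure D3:**
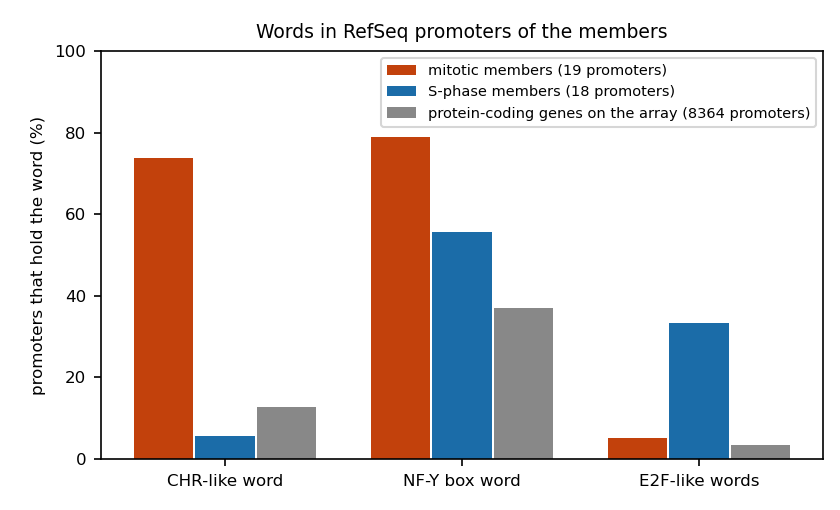
Percent of promoters, from 250 bases before to 50 after the start site, that hold a CHR-like word, an NF-Y box word or an E2F-like word, for 19 mitotic promoters, 18 S-phase promoters and 8364 promoters of protein-coding genes on the array. The CHR-like word was found in 73.7% of mitotic and 5.56% of S-phase promoters, and E2F-like words in 5.26% and 33.3%. The NF-Y box word was found in 78.9% and 55.6%, and in 37.1% of the promoters on the array.

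A second contrast of Fos+/+ with Fos-/- cells that shares no array with the spleen pair is bone marrow over the GFP virus (the tissue and the virus differ along with the genotype). Of 25 members bright enough, 20 were 2-fold higher and 0 lower, where 9.23% of 5257 genes were higher and 5.97% lower. By group these were 14 of 15 mitotic members, all except Ube2c, and 6 of 10 S-phase members, Rrm2, Mcm2, Mcm3, Cdc6, Mcm7 and Mcm4. Many of these were dim with GFP: over genes that reached 39.6 in the GFP array, 8 of 13 members were higher, 5 of 6 mitotic and 3 of 7 S-phase, against 3.56% of 4715 genes. Ratios were 6.15-fold for Kif22, at least 4.61-fold for Cdca8 and 4.10-fold for Cenpa. The median log2 ratio was 1.50 for mitotic and 0.79 for S-phase members and 0.06 for all genes. Over the deltaNFAT virus, bone marrow was higher for 13 of 25 members and lower for 0, with 8.28% of all genes higher. The 13 were 9 of 15 mitotic and 4 of 10 S-phase members, with medians of 0.99 and 0.58. Over genes that reached 39.6 in the deltaNFAT array, 7 of 18 members were higher, against 3.41% of 4811 genes. These were 4 of 10 mitotic and 3 of 8 S-phase members, so the groups had similar shares in this recount.

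With deltaNFAT, few cell cycle genes were higher than with GFP in Fos-/- spleen cells. Of 20 members bright enough, 2 were 2-fold higher and 0 lower, where 3.54% of 5032 genes were higher and 2.58% lower. Both were mitotic, Cdca8 (at least 3.57-fold) and Cenpa (3.29-fold), and both calls were lost at a floor of 65.1. Against Fos-/- spleen without virus, Cdca8 with deltaNFAT was 2.15-fold higher, whereas for Cenpa the ratio was 1.33-fold and its GFP value was the low one of the 3. Median log2 ratios of deltaNFAT over GFP were 0.20 for both groups, and 0.00 for all genes.

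Other members stayed under 2-fold in this comparison. Kif22 with deltaNFAT read 1.96 times its GFP value, Mcm2 1.92 times, Rrm2 1.75 times and Stmn1 1.64 times. For Birc5 and Mcm7 the GFP value was the larger one, by 1.09 and 1.23 times. In the log2 ratios, 21 of the 32 members above the floor were above 0 and 7 below it. Against Fos-/- spleen without virus the counts were 15 above and 14 below, with 1 of 22 members 2-fold higher (Cdca8) and 2 lower (Tk1 and Ccna2), beside 11% and 6.66% of all genes.

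Some members were lower with the GFP virus than without it. Compared with Fos-/- spleen without virus, 4 of 18 members bright enough were 2-fold lower and 0 higher, where 7.06% of 5113 genes were lower and 10.3% higher. They were Ccna2 (at least 2.68-fold), Cenpa (2.47-fold), Tk1 (2.46-fold) and Mcm2 (2.29-fold), and all 4 calls were lost at a floor of 65.1. The median log2 ratio was -0.46 for S-phase and -0.22 for mitotic members and -0.05 for all genes. This comparison shares the Fos-/- spleen array with the genotype comparison and the GFP array with the deltaNFAT comparison, so a reading that is off in either array enters both.

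The Fos+/+ cultures from bone marrow and spleen had similar levels of most members. Of 27 members, 1 was 2-fold higher in bone marrow (Mki67, 2.36-fold) and 3 were lower (Tk1, at least 5.10-fold, Lig1, at least 3.64-fold, and Ccna2, 2.33-fold), where 13.2% of 5291 genes were higher and 7.18% lower. The median log2 ratio was -0.01 for mitotic and -0.06 for S-phase members and 0.05 for all genes. Neither Lig1 nor Tk1 passed at a floor of 65.1, where Ccna2 alone was left.

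**Figure D4:**
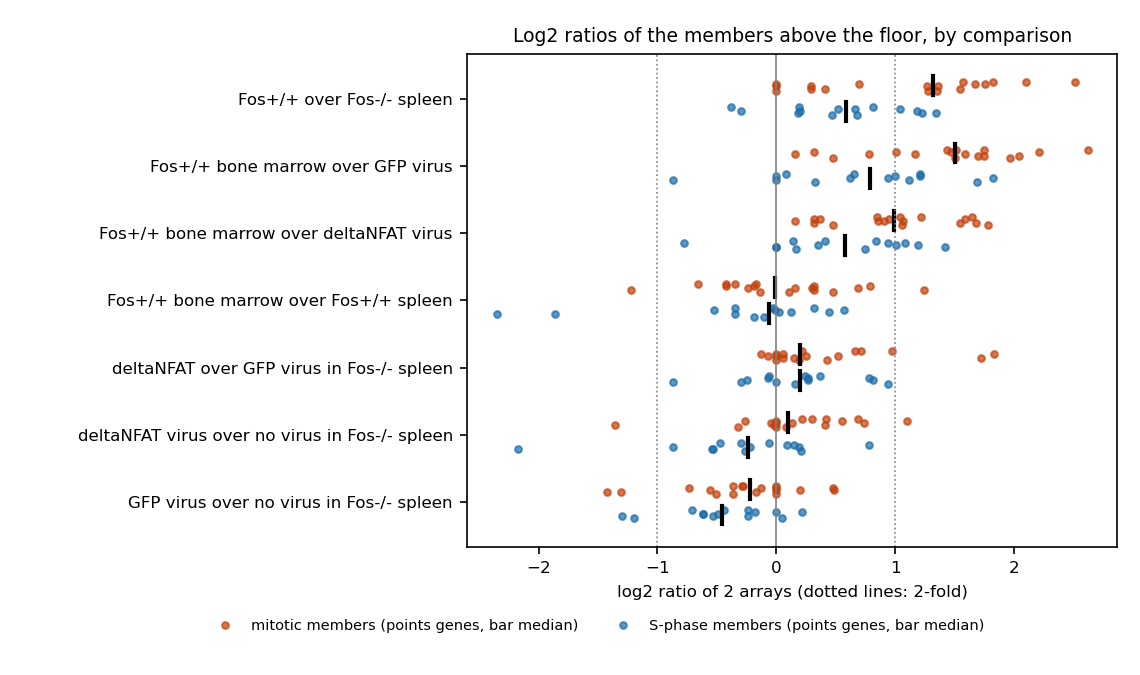
Log2 ratios of 2 arrays for the 18 mitotic and 14 S-phase members above the floor (points) and their medians (black bars) in 7 comparisons, several of which share an array; dotted lines mark 2-fold. The mitotic median is 1.32 for Fos+/+ over Fos-/- spleen and 1.50 for bone marrow over GFP virus, and -0.01 for bone marrow over Fos+/+ spleen.

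Further cell cycle genes were counted by list, beside the 6.48% of all genes that were higher and 6.42% that were lower in the Fos+/+ over the Fos-/- spleen array. Of 18 other replication genes bright enough, 7 were 2-fold higher in Fos+/+ spleen relative to Fos-/- and 0 lower, and the median over the list was 0.26 on the log2 scale. Among them Uhrf1, which brings the maintenance methyltransferase to new DNA, was at least 4.78-fold higher, the chromatin assembly subunit Chaf1b 2.86-fold, the clamp loader subunit Rfc5 2.29-fold and the flap nuclease Fen1 2.07-fold. Fen1 read 164 in Fos+/+ spleen, 142 in bone marrow, 79.2 in Fos-/- spleen, 77.3 for deltaNFAT and 65.8 for GFP, with no overlap between the genotypes. With deltaNFAT over GFP 0 of 13 in this list passed in either direction.

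Of 14 other G2 and mitosis genes bright enough, 3 were 2-fold higher in Fos+/+ spleen relative to Fos-/- and 0 lower, with a median of 0.07. Cks2, a small subunit of the cyclin-dependent kinases, was 2.91-fold higher and the chromatin protein Hmgb2 2.82-fold. Hmgb2 was not ordered by genotype: it read 105.3 in Fos+/+ spleen, 37.4 in Fos-/- spleen, 294 in bone marrow, 107.8 for deltaNFAT and 110.5 for GFP. Like Hmgb2, the condensin genes Smc4 and Smc2 were higher in the bone marrow and virus arrays than in both uninfected spleen arrays. That order was found in 19.8% of all genes. Ncaph, another condensin subunit, gave no reading over the floor. The condensin subunit Smc4 read 15.7 and 25.2 in the Fos+/+ and Fos-/- spleen arrays, 239 in bone marrow, 212 for deltaNFAT and 200.4 for GFP. Smc2, its partner, was under the floor in both uninfected spleen arrays and read 84.4, 57.3 and 38.7 in the same 3 arrays. With deltaNFAT over GFP 0 of 16 passed.

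G1 regulators and inhibitors of the cycle gave mixed counts. Of 11 G1 regulators bright enough, 1 was 2-fold higher in Fos+/+ spleen relative to Fos-/- and 2 lower, with a median of 0.05. The higher one was Mycl, a MYC family transcription factor (at least 4.29-fold, and under the floor in all 3 Fos-/- arrays). The D-type cyclin Ccnd3 was 2.45-fold lower, and Ccnd2 was the other lower one. Of 15 inhibitors, 1 was higher and 2 lower, with a median of 0.00. The higher one was the CDK4 and CDK6 inhibitor Cdkn2d (2.82-fold), while Gadd45a, which restrains the cycle after stress, was 2.08-fold lower and Gadd45g was also lower. Cdkn2d was also the inhibitor that passed with deltaNFAT over GFP, reading 56.5 against a value under the floor.

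Of the marker lists for other cells in the dish, the osteoclast list and the dim megakaryocyte and mast cell list had both Fos+/+ sums above the 3 Fos-/- sums. Summed over 15 osteoclast genes, the intensity was 17950 in Fos+/+ spleen, 13370 in bone marrow, 2854 in Fos-/- spleen, 4726 for deltaNFAT and 2445 for GFP, with 11 of 12 genes bright enough 2-fold higher in Fos+/+ spleen relative to Fos-/-. The macrophage list of 16 genes ran from 13910 (Fos+/+ spleen) to 20770 (GFP), with 1 of 16 higher and 4 lower between the spleen arrays. The neutrophil and granule list summed to 1438 in Fos+/+ spleen, 9971 in bone marrow, 3295 in Fos-/- spleen, 4873 for deltaNFAT and 7029 for GFP. Stromal genes summed to between 18900 (Fos+/+ spleen) and 22700 (Fos-/- spleen), with 1 of 17 higher and 3 lower. The higher one, Dcn, read 319.7 in Fos+/+ spleen, 320.5 in bone marrow and 24.9 for deltaNFAT. It was under the floor in Fos-/- spleen and for GFP. Beside the marker counts here and below, 6.48% of all genes were higher between the spleen arrays and 6.42% lower. Which cells in the dish carried the cell cycle RNA was not tested.

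Other lineages were read unevenly. In the erythroid list 7 of 10 genes were above the floor in some array. Of these, Tfrc read 562 to 926 and Klf1 216 to 346 across the arrays. The haem enzyme Alas2, the receptor Epor and the membrane protein Epb42 were under the floor in every array. The erythroid sum ran from 1042 (Fos-/- spleen) to 1749 (bone marrow). Of 6 erythroid genes bright enough, 1 was higher and 1 lower in Fos+/+ spleen. In the T and NK cell list Cd3e, Cd3d, Cd3g and Cd8a were under the floor in every array, and 0 of 3 genes were higher and 2 lower. In the B cell list 9 of 10 genes were above the floor in some array. Of 8 bright enough, 1 was higher and 0 lower, with B cell sums from 1029 to 1258. In the megakaryocyte and mast cell list 1 of 4 was higher and 0 lower. Its sums were 424.6 and 574 in the Fos+/+ spleen and bone marrow arrays, 253.8 in Fos-/- spleen, 341 for deltaNFAT and 286 for GFP. The sums of the mitotic members themselves were 2128 in Fos+/+ spleen, 2021 in bone marrow, 798 in Fos-/- spleen, 973 for deltaNFAT and 626.5 for GFP.

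**Figure D5:**
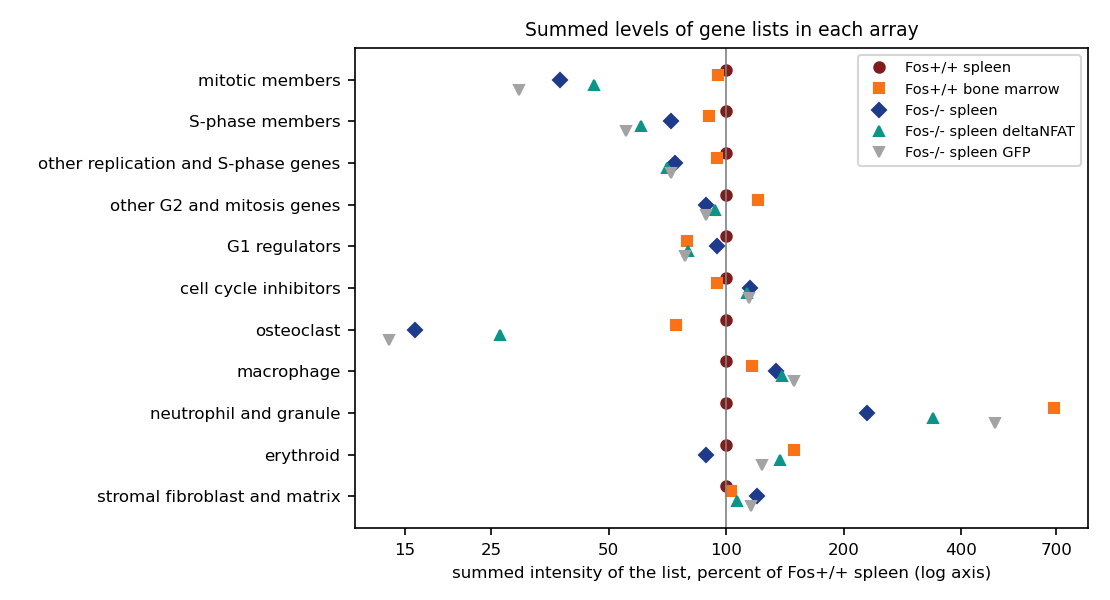
Summed intensity of each gene list in each array as a percent of its sum in Fos+/+ spleen, on a log axis, with 1 point per array and negative values taken as 0. The 3 Fos-/- arrays are lowest for the mitotic members, the S-phase members, both further lists of replication and mitosis genes and the osteoclast list, while the neutrophil list is highest in bone marrow at a sum of 9971.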

How the data were processed

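Gene expression was measured in 5 mouse co-cultures, 1 array each, grouped by the sample titles. The deposited values are linear intensities, 1 for each probe set in an array. No label names the software behind them, but their mean after trimming 2% from either end was 100.1 in each array and 20.3 to 22.4% of values were at or below 0, which shows a scaling and a subtraction. Arrays were set to the same trimmed mean, values under the 40th percentile (19.8) were raised to it and log2 was taken. Genes were named through the platform annotation, from probe sets with 1 symbol, and the brightest probe set over the 5 arrays stood for a gene. A fold against a value at the floor is a lower bound, written "at least". Genes are described with their 5 values when they read 79.2 or more in some array and passed 2-fold in a comparison, and other members by count and range, with values where a count, a gap or a probe set needed them. The members and gene lists were chosen with earlier results of these data known. There were no replicates, so no test was run, and precision is limited by the number of arrays. Promoters were to be printed for the leading 2 members of each group with a word of that group; Lig1 was replaced by Cdk1. The counting was tested on simulated data. Alternatives changed the scaling (none or quantile), the floor, or the probe sets (their mean, or unsuffixed ones only). Python 3.11.15, NumPy 2.4.6, pandas 2.3.3 and SciPy 1.17.1 were used.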

Additional observations from a re-analysis of the deposited data

How the results depend on the processing

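No paired analysis was possible because each group has 1 array. Quantile normalization kept all 18 counts and medians close to those reported, and so did the mean of all probe sets. Using the values as deposited gave the same, but the arrays already shared a trimmed mean of 100.1. That setting therefore could not show a dependence on the scaling. Of the 15 members higher in Fos+/+ spleen, 14 kept their call under every setting other than the floors that measured them, the exception being Lig1, and 6 also at the floors of 38.2 and 65.1. With only unsuffixed probe sets 13 of the 15 were measured, without Kif22 and Plk1. The number higher in Fos+/+ spleen was again 15, of 23 members bright enough, with Mcm3 and Mcm5 passing by their unsuffixed probe sets. The floor mattered most, because many members are dim. At the floor of 65.1 (the 60th percentile) 6 members were higher in Fos+/+ spleen, 0 with deltaNFAT over GFP, 0 higher and 1 lower in bone marrow over Fos+/+ spleen, and 0 lower with GFP virus over no virus. At 38.2 (the 50th percentile) the counts were 1 with deltaNFAT over GFP and 2 lower with GFP virus. At 98.8, the size of the 1st percentile, chosen after the data were seen, they were 4 higher in Fos+/+ spleen, 0 with deltaNFAT, 0 higher and 0 lower in bone marrow, and 0 lower with GFP virus. With only unsuffixed probe sets 1 member was higher with GFP virus over no virus, the dimmer Mcm5 probe set. The members with both Fos+/+ arrays above all Fos-/- arrays were 10 at the floor of 65.1 and 7 at 98.8, and those with a gap of 2-fold were 3 and 2. Both counts were added after the data were seen.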

Other observations

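In the list of 20 cell cycle inhibitors, 19 of them above the floor in some array, 4 genes are described for their order. Rb1, Ccng1, Rbl2 and Ccng2 were higher in the bone marrow array and both virus arrays than in both uninfected spleen arrays. This order was found in 19.8% of all 5567 genes, so it is not particular to the inhibitors. Rb1, the retinoblastoma protein that holds E2F factors back, was under the floor in Fos+/+ and Fos-/- spleen and read 44.3 in bone marrow, 73.7 with deltaNFAT and 88.9 with GFP, at least 4.49-fold higher with GFP virus than without. Ccng1, a cyclin induced by p53, read 76.5 in Fos+/+ spleen, 108 in Fos-/- spleen, 190.2 in bone marrow, 203 with deltaNFAT and 214 with GFP. Bone marrow was 2.49-fold over Fos+/+ spleen, and GFP virus 1.99-fold over no virus. Gadd45a had another order: it was 2.12-fold higher with GFP virus than without, at 327 against 154, and read 342 with deltaNFAT, but 108 in bone marrow and 74.1 in Fos+/+ spleen. Of 16 inhibitors bright enough in each comparison, 3 were 2-fold higher and 1 lower in bone marrow than in Fos+/+ spleen, and 2 higher and 2 lower with GFP virus than without, where 13.2% and 7.18% of all genes were higher and lower in the first comparison and 10.3% and 7.06% in the second.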
